A study of Mus musculus with 7 samples.

Results

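Oxidative phosphorylation was followed through 50 genes that encode subunits of the respiratory complexes and cytochrome c, 13 carried by mitochondrial DNA and 37 by nuclear chromosomes, of the 51912 genes in the count table. The members are a list of gene symbols drawn up with earlier results of these data known, by a rule that uses no measured value: all 13 protein-coding genes of the mouse mitochondrial genome, and 14 nuclear genes listed with complex I, 4 of complex II, 5 of complex III, 6 of complex IV, 7 of complex V and the somatic cytochrome c gene Cycs. Ndufa4 is counted with complex I by its name, although its protein is known as a subunit of complex IV. The RNA came from pancreatic islets of db/db mice, a strain made obese and diabetic by a leptin receptor mutation. Both groups carried this genotype: 4 mice had received an adeno-associated virus (AAV) encoding GFP and 3 an AAV encoding adipsin, the complement factor D protease made by the gene Cfd. Islets were taken after 4 weeks of treatment and kept in culture for 12 hours before RNA extraction. Each mouse gave 1 library, and the labels call each mouse a separate replicate. Sex, age, the AAV serotype and its promoter are not in the labels, and a whole-islet RNA sample cannot tell fewer cells of a type from less RNA per cell.

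Libraries were poly(A)-selected and held between 29601707 and 43997400 counted reads. Cfd had 0 or 1 read in each AAV-GFP library and 3965, 839 and 1481 reads in the AAV-Adipsin libraries, matching the labels. Beta cell markers dominated all 7 libraries, with 164160.0 to 204440.0 CPM (read counts scaled to library size) summed over 10 genes. Markers of other cell types were present as well: 10 acinar genes summed to 2399 to 15773 CPM in AAV-GFP and 2958 to 11244 CPM in AAV-Adipsin. Besides the treatment, the labels hold a second split: replicate 1 of each group is described by a treatment name and the other 5 libraries by "db" and a number. What the 2 kinds of description stand for is not given in the sources used here. They are called treatment-named and db-numbered libraries below, and the difference between them was tested with treatment in the model.

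Oxidative phosphorylation passes electrons from NADH (complex I) or succinate (complex II) through complex III and cytochrome c to oxygen at complex IV. Complexes I, III and IV pump protons, and ATP synthase (complex V) uses the return flow to make ATP. Mitochondrial DNA encodes the hydrophobic core subunits of complexes I, III, IV and V and none of complex II. These transcripts are cut from long polycistronic precursors made by the polymerase Polrmt with the factor Tfam, whereas each nuclear subunit has its own promoter and its protein is imported. In beta cells the ATP made this way closes potassium channels, which leads to insulin release.

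5 of the 13 mitochondrial members were at or near 0 reads in every library. mt-Nd4l (complex I) had 0 reads in all 7 libraries, mt-Atp8 (complex V) 0 to 1, mt-Co2 (complex IV, which takes electrons from cytochrome c) 0 to 2, mt-Atp6 (the proton channel of complex V) 0 to 3 and mt-Co3 (complex IV) 0 to 8. mt-Nd3, a small core subunit of complex I, had 52 to 133. The other 7 (mt-Nd1, mt-Nd2, mt-Nd4, mt-Nd5, mt-Nd6, mt-Cytb and mt-Co1) had between 18269 and 221203 reads per library. A count of 0 allows up to 3 reads, or 0.0682 to 0.101 CPM depending on the library, and this limit covers counting error only.

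The genes near 0 lie next to each other on the mitochondrial genome, and the same stretch has a near-identical nuclear copy. Matching the members to all annotated transcripts (GENCODE M21, GRCm38) found 7 copies of at least 99% identity in a row on the minus strand at chr1:24611535-24616197, a segment of 4663 bp that corresponds to positions 6390 to 11042 of the mitochondrial genome. The copies Gm28661 of mt-Co2, Gm10925 of mt-Atp6, Gm28437 of mt-Co3 and Gm10222 of mt-Nd4l were 100% identical over the aligned bases. Gm28438 differed from mt-Nd3 at 1 of 345 bases. No copy of mt-Atp8 is annotated, but its place between mt-Co2 and mt-Atp6 falls inside the segment, at chr1:24614609-24614812. Gm29216 covered the last 483 of 1545 bases of mt-Co1, and Gm28439 the first 876 of 1378 bases of mt-Nd4. The 7 copies themselves were counted at most 23 times in a library. Whether the authors' counting set aside reads that match more than 1 place is not known, and its part in these levels was not tested. No statement on the expression of the 5 genes is made from their counts.

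Stretches of 100 bases show what a read from these genes would have to be told apart by. Bases that differ between a gene and its copy are in capitals, and the sequences are from the GENCODE transcripts. mt-Nd4l lies at chrM:9877-10173, mt-Nd3 at chrM:9459-9806 and mt-Nd2 at chrM:3914-4951 (GRCm38, plus strand), and each is a single protein-coding exon. A stretch near the end of mt-Nd4l (bases 195 to 294 of the gene, no read in any library) has the same letters in Gm10222 and is shown once. mt-Nd3 is shown from base 1 with its 1 differing base. mt-Nd2 had 34202 to 60333 reads. Its stretch was picked as the one with the most bases that differ from its copy Gm13339 on chromosome 2, 6 of 100. Over all 510 aligned bases mt-Nd2 and Gm13339 differed at 17, with a longest identical run of 129 bases.
mt-Nd4l and Gm10222: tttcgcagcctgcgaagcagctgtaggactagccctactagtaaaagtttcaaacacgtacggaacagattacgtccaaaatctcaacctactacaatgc
mt-Nd3: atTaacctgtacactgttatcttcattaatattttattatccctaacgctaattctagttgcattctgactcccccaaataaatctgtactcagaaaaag
Gm28438: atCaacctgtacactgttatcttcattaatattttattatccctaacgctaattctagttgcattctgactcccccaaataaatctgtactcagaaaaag
mt-Nd2: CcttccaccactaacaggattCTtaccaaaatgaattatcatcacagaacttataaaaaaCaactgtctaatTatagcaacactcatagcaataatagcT
Gm13339: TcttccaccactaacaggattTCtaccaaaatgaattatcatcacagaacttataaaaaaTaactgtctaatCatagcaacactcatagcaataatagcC

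The other annotated copies were less alike: Gm13340 (mt-Co1, 97.6% identity), Gm13341 (mt-Co2, 95.9%), Gm13339 (mt-Nd2, 96.7%) and Gm4076 (mt-Nd5, 95.2%). mt-Nd1, mt-Nd6 and mt-Cytb had no annotated copy of at least 95% identity over 100 bases. Of the 37 nuclear members, 10 matched another annotated gene at that level, Cycs as many as 7 of them. For 4 members matches of at least 99% identity covered 10% or more of the transcript. These were Cycs (30.3%) and Cox5b (45.1%), whose counts may be affected to a degree that was not measured, and Atp5o (29.0%) and Ndufb9 (28.7%). The matches of Atp5o (a gene ID also named Atp5o) and Ndufb9 (Gm49356) are not in the count table. Whether they overlap the member itself in the genome was not checked, so they may not be separate copies. mt-Nd6 is the only mitochondrial member on the opposite strand, where its end lies opposite 14 bases of mt-Nd5. The library kit keeps strand, but the strand setting of the counting is not given, so antisense reads over mt-Nd6 cannot be told from its own.

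**Figure D1:**
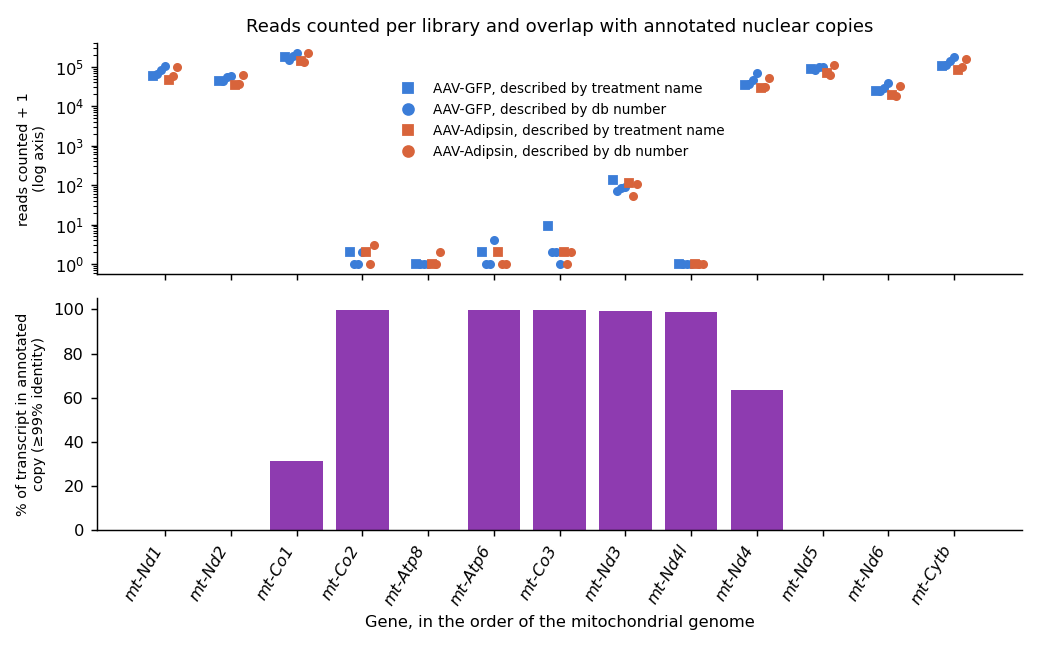
The 13 mitochondrial genes in genome order: reads counted in each of the 7 libraries (top, reads + 1 on a log axis) and the percent of the transcript that lies in an annotated copy of at least 99% identity (bottom). The genes from mt-Co2 to mt-Nd4l were counted between 0 and 133 times per library, and all of them except mt-Atp8 lie almost entirely in such copies.

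On a per-length scale (TMM-scaled CPM per kilobase of exon sequence, mean ± SD over all 7 libraries), the 7 well-counted mitochondrial members stood far above the nuclear members. mt-Co1, the catalytic subunit of complex IV, had a level of 3215 ± 873 CPM per kilobase and mt-Cytb, the core of complex III, one of 3153 ± 1179. These 2 means differed by less than their SDs, and mt-Co1 was the higher in 6 of 7 libraries. The complex I subunits followed, with levels of 2192 ± 821 for mt-Nd1, 1461 ± 547 for mt-Nd6, 1347 ± 313 for mt-Nd5, 1288 ± 372 for mt-Nd2 and 883 ± 391 for mt-Nd4. Neighbours from mt-Cytb to mt-Nd2 differed by less than the larger of their SDs. mt-Nd2 and mt-Nd4 differed by slightly more, and mt-Nd4 was the lowest of the 7 in every library. These SDs hold the spread between libraries, in which the 7 genes largely rose and fell together. They do not measure the error of a difference between genes. Within every library mt-Cytb lay above mt-Nd1 and mt-Nd1 above mt-Nd6. By mean CPM per kilobase mt-Co1 ranked 7 and mt-Nd4 ranked 22 among 16467 genes. Part of mt-Nd4 and mt-Co1 lies in the chromosome 1 copies. Scaled to the 502 bases of mt-Nd4 outside them, the AAV-GFP level was 2748 CPM per kilobase in place of 1001, and scaled to 1062 bases of mt-Co1 it was 5033 in place of 3459.5.

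The 37 nuclear members spanned 10.04 to 253 CPM per kilobase with a median level of 39.9, against a median of 1461 for the 7 mitochondrial members. The ratio of these medians within a library ran from 23.6 to 52.4. In complex I, the accessory subunits Ndufa1 (253 ± 24.4 CPM per kilobase) and Ndufa2 (88.6 ± 15.2) were highest, and the iron-sulfur core subunit Ndufs1 was among the lowest of the 14, at 10.4 ± 0.537. In complex II, whose subunits are all nuclear, the membrane anchor Sdhd had 111 ± 8.19, the flavoprotein Sdha, which oxidises succinate, 65.6 ± 2.68, the iron-sulfur subunit Sdhb 31.1 ± 1.96 and the other anchor Sdhc 26.7 ± 4.06 CPM per kilobase. In complex III, the Rieske iron-sulfur protein Uqcrfs1 had 65.1 ± 5.61, the core protein Uqcrc2 56.8 ± 3.04 and its partner Uqcrc1 25.7 ± 1.67. The small complex IV subunits Cox8a (239 ± 27.5) and Cox6a1 (157 ± 17.5) led that complex, and the alpha and catalytic beta subunits of ATP synthase, Atp5a1 (201 ± 2.82) and Atp5b (138 ± 4.23), led complex V. Cycs, which carries electrons from complex III to IV, was the lowest nuclear member at 10.04 ± 1.43 CPM per kilobase. These orders rest on annotated exon length: with the longest annotated transcript in its place, the nuclear median became 68.2 CPM per kilobase. Some orders then changed, with Atp5b above Atp5a1 and Uqcrc2 above Uqcrfs1. Ndufa2 and Cox6a1 were each passed by another member of their complex.

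**Figure D2:**
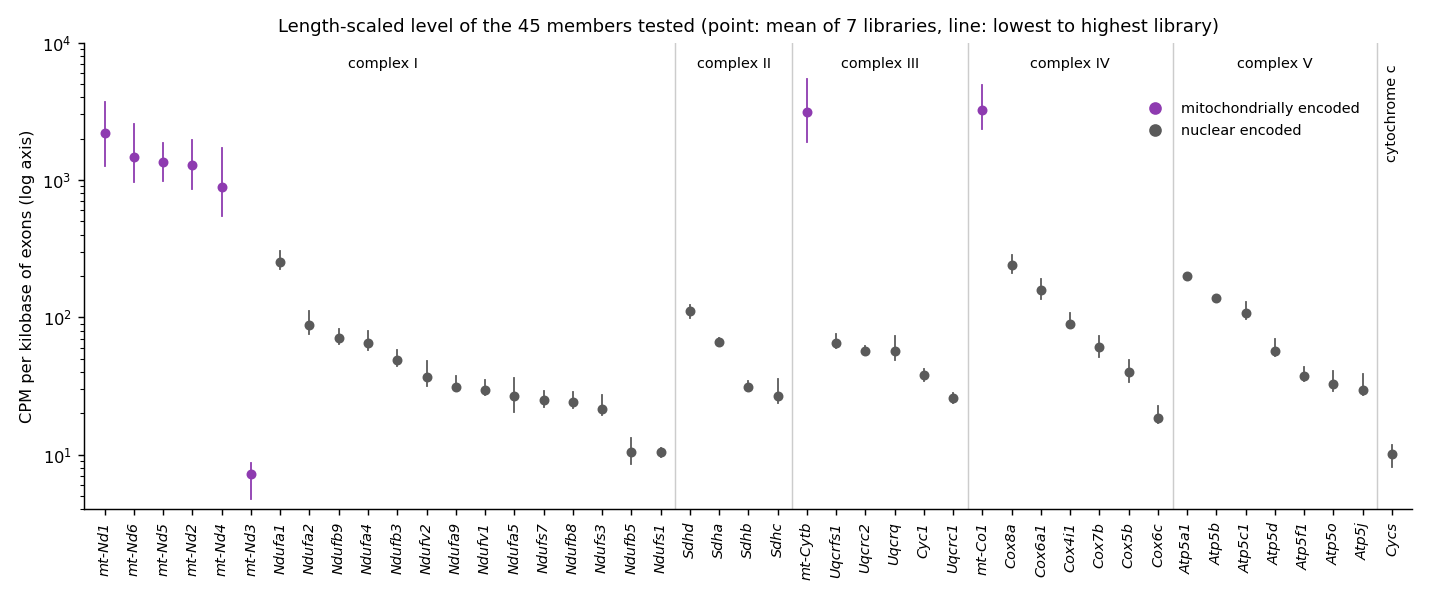
Length-scaled level of the 45 members that passed the filter on low counts, by complex (log axis; point, mean of 7 libraries; line, lowest to highest library; purple, mitochondrially encoded; grey, nuclear encoded). Apart from mt-Nd3, at 7.18 CPM per kilobase, every mitochondrial gene shown sits above every nuclear gene.

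Nuclear subunit genes are known to share promoter sites for NRF1, ETS factors such as GABPA, and YY1. RefSeq promoter windows (GRCm38.p6, 250 bases before to 50 after the start) were matched for 27 of the 37 nuclear members, and each motif was searched on both strands. The NRF1 core GCGCNTGCG occurred in 9 of 27 members (33.3%) and in 7.1% of 27025 genes. The ETS motif CCGGAAG occurred in 6 of 27 (22.2%, all genes 9.9%) and the YY1 motif AAGATGGC in 5 of 27 (18.5%, all genes 3.2%). None of the 3 strings contains another. Sdhd and Cox6a1 had the NRF1 core and the ETS motif, and Atp5j had the ETS and YY1 motifs. A match describes letters in the window and shows no binding. The promoter of Cycs, at chr6:50566520-50566819 on the minus strand, is shown because Cycs was the nuclear member called in the comparison of descriptions below, with the NRF1 core in capitals.
Cycs promoter: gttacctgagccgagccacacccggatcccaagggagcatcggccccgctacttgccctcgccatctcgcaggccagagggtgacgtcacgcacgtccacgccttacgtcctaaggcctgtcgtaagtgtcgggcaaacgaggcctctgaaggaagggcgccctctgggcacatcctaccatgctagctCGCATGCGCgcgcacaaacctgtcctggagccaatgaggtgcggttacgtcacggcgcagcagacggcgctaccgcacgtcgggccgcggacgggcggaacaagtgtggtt

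Counted reads of the mitochondrial members took a share of the library that varied far more between mice than the nuclear share did. Nearly all of them came from the well-counted genes, as the genes near 0 had at most 8 reads each in a library and mt-Nd3 at most 133. What the genes near 0 would add to the share, and to its ratio to nuclear reads, is not known. The 13 mitochondrial members held 1.20, 1.66, 1.64 and 2.60% of all reads in AAV-GFP replicates 1 to 4 and 1.10, 1.41 and 1.86% in AAV-Adipsin replicates 1 to 3. AAV-GFP replicate 4 was highest and the 2 treatment-named libraries (replicate 1 of each group) were lowest. The group means were 1.77 ± 0.589% (SD, n = 4) and 1.46 ± 0.379% (SD, n = 3), so the groups overlapped. The 37 nuclear members held 0.420 to 0.491% in AAV-GFP and 0.443 to 0.451% in AAV-Adipsin. Reads of mitochondrial over nuclear members ran from 2.44 in AAV-Adipsin replicate 1 to 5.30 in AAV-GFP replicate 4. At these read numbers the spread between mice, not counting error, sets the precision of the shares.

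The 7 well-counted genes each had AAV-GFP replicate 4 highest and the 2 treatment-named libraries lowest. mt-Nd1 was at 1321, 2170.0, 2123 and 3566 CPM in the 4 AAV-GFP libraries and 1206, 1889 and 2409 CPM in the 3 AAV-Adipsin libraries. mt-Cytb was at 2393, 3632, 3676 and 6251 CPM in the 4 AAV-GFP libraries and 2176, 3116 and 4004 CPM in the 3 AAV-Adipsin libraries. mt-Co1 was at 3836, 4932, 4979 and 7632 CPM in the 4 AAV-GFP libraries and 3620.3, 4293 and 5477 CPM in the 3 AAV-Adipsin libraries. In all 3, AAV-GFP replicate 4 was highest, AAV-Adipsin replicate 1 was lowest and the groups overlapped. mt-Nd2 was at 944, 1450.1, 1402 and 2013 CPM in the 4 AAV-GFP libraries and 887, 1151 and 1509.8 CPM in the 3 AAV-Adipsin libraries, and mt-Nd5, the largest mitochondrial subunit of complex I, at 1933, 2678, 2598 and 3412 CPM in the 4 AAV-GFP libraries and 1806, 2021 and 2749 CPM in the 3 AAV-Adipsin libraries. mt-Nd4 was at 790.1, 1180.4, 1204 and 2343 CPM in the 4 AAV-GFP libraries and 748, 962 and 1288 CPM in the 3 AAV-Adipsin libraries. mt-Nd6 was at 540.2, 775, 773 and 1338 CPM in the 4 AAV-GFP libraries and 502, 579 and 799 CPM in the 3 AAV-Adipsin libraries. AAV-GFP replicate 4 was 1.42 (mt-Nd5) to 2.21 (mt-Nd4) times the mean of the other AAV-GFP libraries for these 7 genes. mt-Nd3 was far lower than the others, at 2.96, 2.24, 2.10 and 3.04 CPM in the 4 AAV-GFP libraries and 2.83, 1.65 and 2.68 CPM in the 3 AAV-Adipsin libraries. AAV-GFP replicate 4 was highest for mt-Nd3 too, but the treatment-named libraries came next and AAV-Adipsin replicate 2 was lowest.

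**Figure D3:**
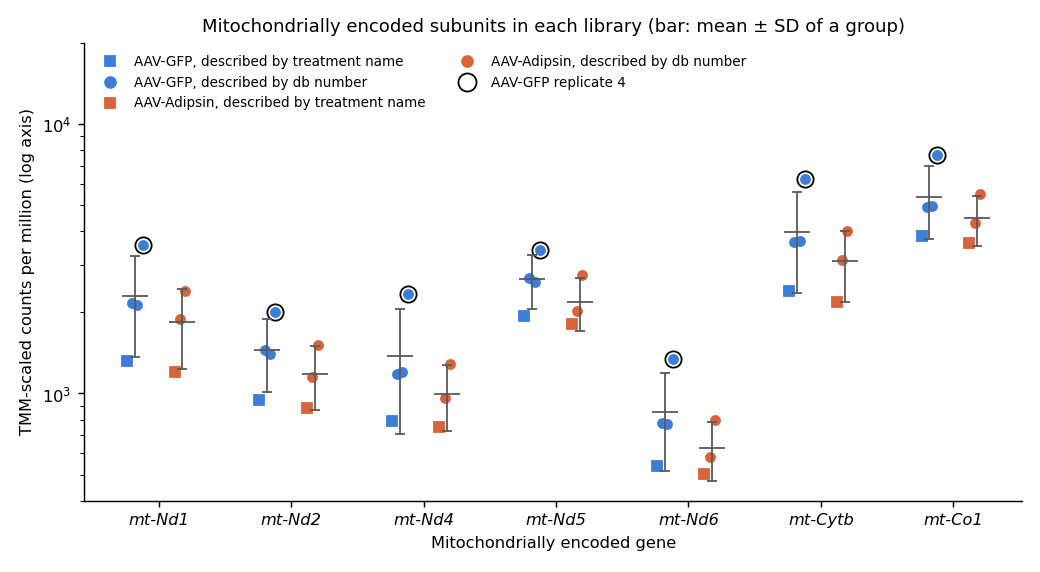
TMM-scaled CPM (log axis) of the 7 well-counted mitochondrial members in each library; blue, AAV-GFP; orange, AAV-Adipsin; squares, treatment-named; circles, db-numbered; bars, mean ± SD of a group. For each gene AAV-GFP replicate 4 (ringed) is the highest of 7 and the 2 squares are the lowest.

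AAV-GFP replicate 4 stood apart across the members. It had the highest CPM for all 8 mitochondrial members tested and for 29 of 37 nuclear members, while it was highest for 25.2% of all 16504 genes tested. Its median deviation from the mean of 7 libraries (log2 CPM) was 0.75 for mitochondrial and 0.25 for nuclear members, beside 0.014 for all genes. In the same library, 42 further respiratory subunits deviated by 0.30, 28 mitochondrial ribosome genes by 0.16, and 17 genes of the citric acid cycle and pyruvate dehydrogenase by 0.035. The mitochondrial ribosomal RNAs were highest there too: mt-Rnr1 (12S) was at 315 CPM against 96.7 to 109 in the other AAV-GFP libraries, and mt-Rnr2 (16S) at 416 against 114 to 144. Sums of cell type markers differed from the other AAV-GFP libraries as well. The summed level of 5 mesenchymal markers was 262 CPM against 38.2 to 81.2, and that of 2 delta cell markers 893 against 457 to 549. That of 5 endothelial markers was 507 against 310.5 to 337, and that of 10 acinar markers 2399 against 4698 to 15773. Its sums of beta cell (203220 CPM), duct (1697) and macrophage (148) markers were also above the other AAV-GFP libraries, and its alpha cell and lymphocyte sums lay within their range. AAV-GFP replicate 4 was the highest library for 5 of 5 mesenchymal and 2 of 2 delta cell markers, but for only 1 of 5 endothelial markers. It was the highest for 3 of 10 beta cell markers and the lowest for 2, and the highest for no duct or macrophage marker. Transcript length moved with it as well, since among genes with a mean log2 CPM of at least 4 its median deviation was 0.27 for transcripts of up to 1000 bases and -0.14 for those over 4000. For nuclear members of up to 1000 bases the same median was 0.26. It was 0.25 for nuclear members of 1000 to 2000 bases (all such genes 0.17) and 0.16 for those of 2000 to 4000 (all such genes 0.039). The part of these in the members' levels was not tested.

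The study asked what adipsin overexpression does to the islet transcriptome. No member was called for AAV-Adipsin against AAV-GFP by edgeR's quasi-likelihood test (Benjamini-Hochberg adjusted over 16504 genes, threshold 0.05): 0 of 45 members tested, where 1 gene of all, Cfd, was called (0.00606%). DESeq2 and limma-voom also called 0 of the 45. None had an unadjusted p under 0.05 in edgeR, beside 1.16% of all genes, and in none did the 2 groups' CPM ranges separate, beside 2.73% of all genes. The median log2 fold change was -0.31 over the 8 mitochondrial members, all of them below 0, -0.043 over the 37 nuclear members, 31 of them below 0, and -0.011 over all genes. The standard errors of the 8 mitochondrial members' estimates were 0.20 to 0.36, and no member differed by more than 2 times its error.

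Among the mitochondrial members the log2 fold changes (± standard error) were -0.46 ± 0.36 for mt-Nd4, -0.45 ± 0.30 for mt-Nd6, -0.36 ± 0.33 for mt-Cytb, -0.32 ± 0.35 for mt-Nd1, -0.30 ± 0.26 for mt-Nd2, -0.28 ± 0.20 for mt-Nd5, -0.26 ± 0.23 for mt-Co1 and -0.11 ± 0.25 for mt-Nd3, with edgeR adjusted p of 1.00 in each. mt-Nd6, with the smallest p, averaged 857 ± 339 CPM (SD, n = 4) in AAV-GFP and 627 ± 154 (SD, n = 3) in AAV-Adipsin. Without AAV-GFP replicate 4 the same difference for mt-Nd6 was -0.15 and that of mt-Nd4 -0.081. Over the members, leaving that library out gave a mitochondrial median of -0.070 and a nuclear median of 0.034, with 7 of 37 nuclear members below 0 in place of 31. Within the 2 treatment-named libraries the median difference (log2 CPM, AAV-Adipsin minus AAV-GFP) was -0.094 for mitochondrial and 0.032 for nuclear members, and within the 5 db-numbered ones -0.28 and -0.069.

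Nuclear members differed between the treatments by -0.18 to 0.088 on the log2 scale, and none passed the test in any complex. In complex I, 12 of 14 were below 0 with a median of -0.042. Its smallest p values were those of the iron-sulfur subunit Ndufv2, whose log2 fold change was -0.16 ± 0.14, and the accessory subunit Ndufa5, with -0.18 ± 0.16. Ndufv2 was at 68.4, 83.8, 75.7 and 104 CPM in the 4 AAV-GFP libraries and 68.9, 74.9 and 78.9 CPM in the 3 AAV-Adipsin libraries. Ndufa5 was at 24.6, 27.2, 26.8 and 37.1 CPM in the 4 AAV-GFP libraries and 21.1, 27.9 and 27.5 CPM in the 3 AAV-Adipsin libraries. In both, the highest library was AAV-GFP replicate 4 and the groups overlapped.

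In complex II all 4 were below 0 (median -0.039). Sdhc was at 88.0, 81.1, 76.7 and 115 CPM in the 4 AAV-GFP libraries and 87.6, 79.6 and 78.9 CPM in the 3 AAV-Adipsin libraries, a log2 fold change of -0.14 ± 0.14, and its AAV-GFP replicate 4 alone lay outside the range of the other 6. Sdha was at 271, 291, 264 and 271 CPM in the 4 AAV-GFP libraries and 277, 256 and 265 CPM in the 3 AAV-Adipsin libraries, with -0.043 ± 0.076, and AAV-GFP replicate 2 was highest. In complex III 3 of 5 were below 0 (median -0.015). The log2 fold change of the small subunit Uqcrq was -0.11 ± 0.13 and that of Uqcrfs1 -0.068 ± 0.10.

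In complex IV all 6 were below 0 (median -0.061). Cox6a1 had a log2 fold change of -0.072 ± 0.12 and Cox8a one of -0.068 ± 0.12. Cox8a was at 158, 136, 134 and 176 CPM in the 4 AAV-GFP libraries and 161, 141 and 131 CPM in the 3 AAV-Adipsin libraries, with AAV-GFP replicate 4 highest and AAV-Adipsin replicate 3 lowest. In complex V 6 of 7 were below 0 (median -0.058). Atp5j, coupling factor 6 of the stalk, was at 88.4, 89.2, 85.7 and 121 CPM in the 4 AAV-GFP libraries and 88.5, 89.9 and 88.6 CPM in the 3 AAV-Adipsin libraries, and only AAV-GFP replicate 4 lay outside 85.7 to 89.9 CPM. The log2 fold change of Atp5j was -0.11 ± 0.12 and that of Atp5d, a subunit of the catalytic head's central stalk, -0.088 ± 0.11. Atp5a1 was the steadiest of the abundant members, with 618 to 644 CPM over all 7 libraries. Cycs had a log2 fold change of 0.088 ± 0.15.

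**Figure D4:**
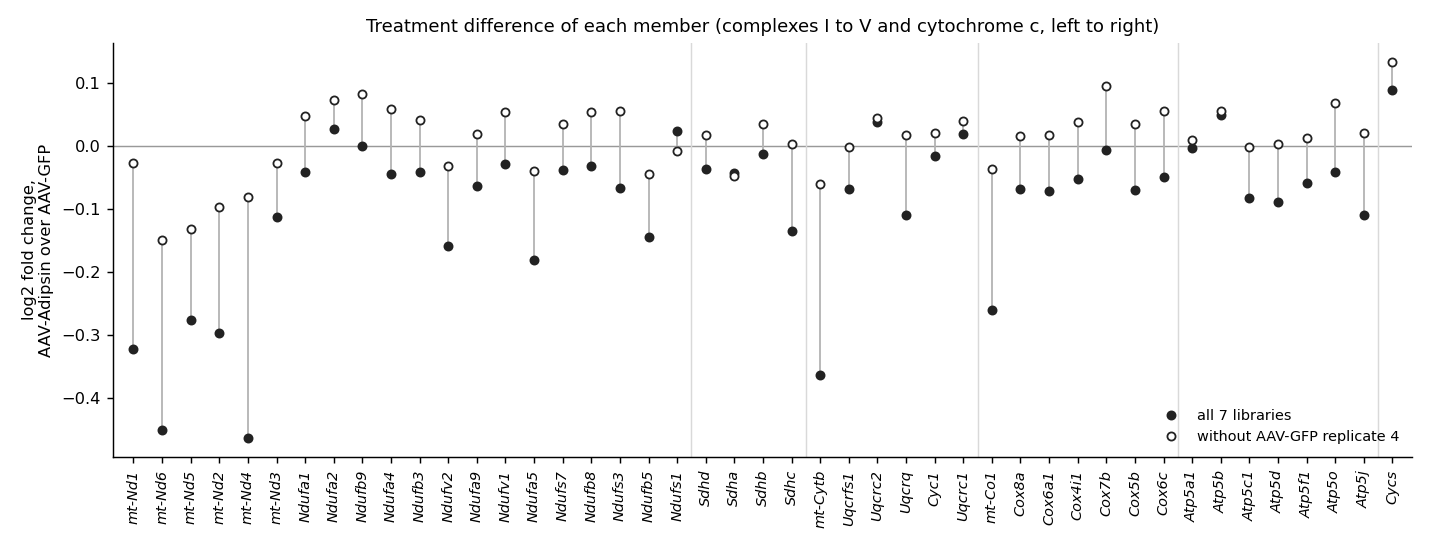
log2 fold change of AAV-Adipsin over AAV-GFP for the 45 members tested, with all 7 libraries (filled) and without AAV-GFP replicate 4 (open). With all libraries the 8 mitochondrial members lie between -0.46 and -0.11, and without that library their median is -0.070.

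The split by description gave larger differences than the treatment. edgeR's quasi-likelihood test, with treatment in the model, called 1616 of 16504 genes (9.79%) between the 2 treatment-named and the 5 db-numbered libraries, 920 of them lower in the treatment-named libraries (5.57%). Of the 45 members tested it called 3, all lower: mt-Nd1, mt-Nd2 and Cycs. mt-Nd1 had a log2 fold change of -0.91 ± 0.23 (edgeR adjusted p = 0.049), mt-Nd2 one of -0.69 ± 0.17 (edgeR adjusted p = 0.049) and Cycs one of -0.41 ± 0.078 (edgeR adjusted p = 0.022). Being close to the 5.57% of all genes called lower, 3 of 45 is not a result about the members. What the descriptions stand for is unknown, and with 1 treatment-named library per group the difference rests on 2 mice.

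The 7 well-counted mitochondrial members were all lower in the treatment-named libraries, 2 of them past the test. The median log2 fold change was -0.67 over the 8 mitochondrial members, 7 of them below 0, -0.013 over the 37 nuclear members, 19 of them below 0, and -0.0055 over all genes. Both treatment-named libraries lay under all 5 db-numbered ones for 7 of 8 mitochondrial members, beside 18.9% of all genes. The log2 fold changes of the members not called were -0.82 ± 0.24 for mt-Cytb, -0.80 ± 0.31 for mt-Nd4, -0.65 ± 0.26 for mt-Nd6, -0.52 ± 0.19 for mt-Co1 and -0.50 ± 0.15 for mt-Nd5, with edgeR adjusted p between 0.077 and 0.16. mt-Nd3 was the exception at 0.32 ± 0.25, but it rests on 52 to 133 reads per library and 99.1% of it lies in a near-identical copy. mt-Cytb averaged 2284 ± 154 CPM (SD, n = 2) in the treatment-named libraries and 4136 ± 1224 CPM (SD, n = 5) in the db-numbered ones.

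Nuclear members went both ways. Both treatment-named libraries lay below all db-numbered ones for 12 of 37 (all genes 18.9%) and above them for 3 of 37, Ndufa2, Uqcrc1 and Uqcrc2 (all genes 18.7%). Cycs was at 28.0 and 27.6 CPM in the treatment-named libraries and at 33.1, 35.7, 36.3, 38.6 and 40.0 CPM in the db-numbered ones. Ndufa2 was at 59.9 and 63.4 CPM against 43.0 to 55.0 CPM, a log2 fold change of 0.42 ± 0.11 (edgeR adjusted p = 0.053). Ndufb5, an accessory subunit of complex I, had a log2 fold change of -0.33 ± 0.10, and Cox7b and Cox5b, small subunits of complex IV, had -0.31 ± 0.10 and -0.28 ± 0.11. The ATP synthase subunits Atp5c1, the rotating gamma shaft, and Atp5f1, a stalk subunit, had -0.19 ± 0.088 and -0.18 ± 0.081. The core proteins Uqcrc2 and Uqcrc1 of complex III had 0.14 ± 0.059 and 0.15 ± 0.069, and the complex II subunits Sdhb and Sdhd had 0.081 ± 0.082 and 0.071 ± 0.092. Apart from Cycs, no nuclear member passed the test.

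The number of calls moved with the libraries in the fit. Without AAV-GFP replicate 4, edgeR called 20 of the 45 members, 7 mitochondrial and 6 nuclear ones lower and 7 nuclear ones higher, with 26.6% of all genes called. mt-Nd1 then had a log2 fold change of -0.77 (edgeR adjusted p = 0.0019), Ndufa2 one of 0.49 (edgeR adjusted p = 0.00077) and Cox8a one of 0.23 (edgeR adjusted p = 0.01). DESeq2 with all 7 libraries called 9 members, 5 mitochondrial and 3 nuclear ones lower and 1 nuclear one higher, with 15.3% of all genes called. Calls over all genes became fewer in each of the other 6 fits that left out 1 library. Without AAV-GFP replicate 2, Cycs was the only member called and 6.7% of all genes were. No member was called without AAV-GFP replicate 3 (4.14% of all genes), AAV-Adipsin replicate 2 (2.05%) or AAV-Adipsin replicate 3 (3.0%). The same held when AAV-GFP replicate 1 was left out (0.242%), or else AAV-Adipsin replicate 1 (0.33%), where 1 treatment-named mouse is left and is assumed to vary like the other libraries, so these 2 fits say little about the members. Cell type markers were compared over the same split: 5 alpha cell markers summed to 9417 to 9440.5 CPM in the treatment-named and 6414 to 8882 CPM in the db-numbered libraries, and 10 beta cell markers to 192640.0 to 204440.0 and 164160.0 to 203220.0 CPM. Of these 2 lists only the alpha sums did not overlap, and the 10 acinar markers, with Amy2a5 at 0, overlapped as well between the 2 kinds of library. The alpha markers did not move together: 3 of 5 were above 0 and 2 below (median log2 fold change 0.039), with 0 called. 4 of 10 beta cell markers (Iapp, Slc2a2, Ucn3 and Slc30a8) were called higher in the treatment-named libraries, beside 696 of 16504 genes. The log2 fold change was below 0 for 3 of the 10. The part of these markers in the members' differences was not tested. A difference in the treatment effect between the 2 kinds of description was not detectable: an interaction term called 0 of 16504 genes in edgeR, with 0 of 45 members at an unadjusted p under 0.05 (135 of all genes).

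**Figure D5:**
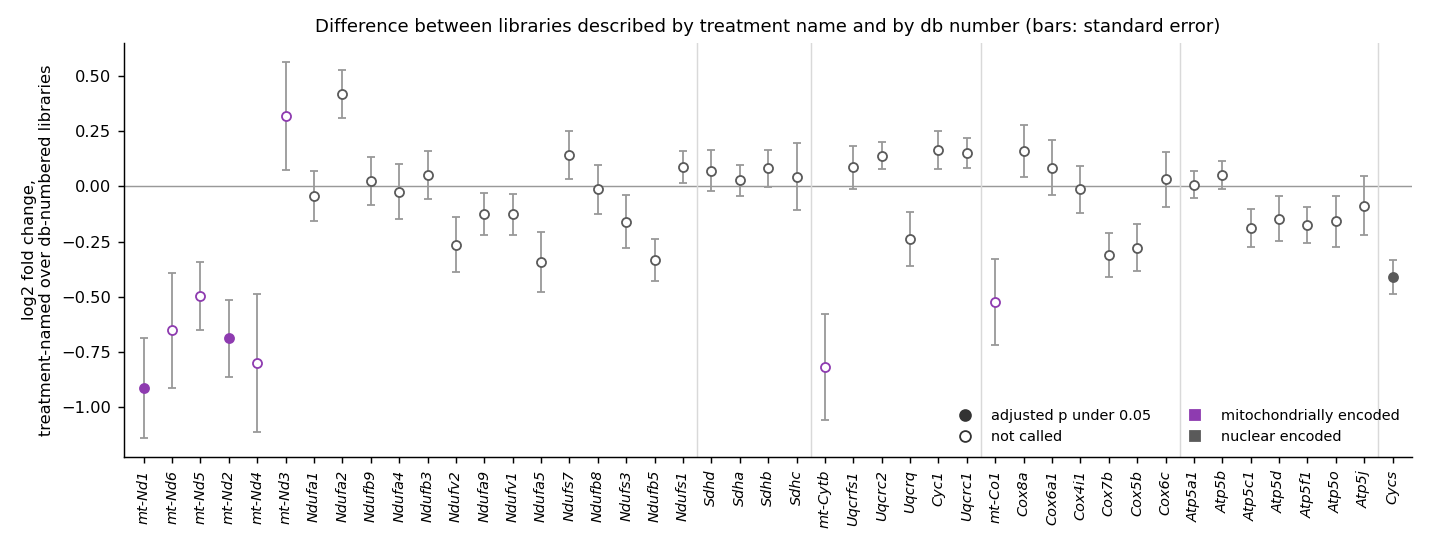
log2 fold change (± standard error) of the 2 treatment-named over the 5 db-numbered libraries for the 45 members tested, with treatment in the model; filled points have an edgeR adjusted p under 0.05. 7 of the 8 mitochondrial members (purple) lie between -0.91 and -0.50, and the nuclear members (grey) between -0.41 and 0.42.

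Genes that make, regulate or surround the complexes had 0 calls by edgeR for treatment in every list, and 0 genes of the mitochondrial lists had an unadjusted p under 0.05. Of 42 further subunits 34 were below 0 (median log2 fold change -0.057), and Ndufc2, a complex I subunit with the smallest p among them, averaged 115 ± 12.7 CPM (SD, n = 4) in AAV-GFP and 99.4 ± 7.92 (SD, n = 3) in AAV-Adipsin, a log2 fold change of -0.21 ± 0.11. Ndufa6, another complex I subunit, had -0.15 ± 0.12. Of 9 tissue-specific isoforms 4 were expressed enough to test (median -0.19), all at low levels, with Ndufa4l2 at 3.07 ± 1.20 CPM in AAV-GFP and Cox7a1 at 0.445 ± 0.0804. The isoforms Cox8b and Cox8c had 0 reads in all libraries. Of 42 assembly factors tested 36 were below 0 (median -0.062), and in 4 of them the groups did not overlap, all lower in AAV-Adipsin, beside 2.73% of all genes in either direction. For Tmem126b, an assembly factor of complex I, the AAV-GFP libraries lay at 31.0 to 32.7 CPM and the AAV-Adipsin libraries at 28.3 to 29.9 CPM, a log2 fold change of -0.14 ± 0.073. Sdhaf1, which helps insert the iron-sulfur clusters of complex II, had -0.21 ± 0.12.

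Genes of mitochondrial transcription and RNA processing had a median log2 fold change of -0.035 over 28. Polrmt, the mitochondrial RNA polymerase, averaged 19.9 ± 2.03 CPM (SD, n = 4) in AAV-GFP and 20.5 ± 1.40 (SD, n = 3) in AAV-Adipsin, and Tfam, which packages mitochondrial DNA and starts its transcription, 50.8 ± 2.30 CPM (SD, n = 4) in AAV-GFP and 49.7 ± 2.32 (SD, n = 3) in AAV-Adipsin. Hsd17b10, a subunit of mitochondrial RNase P, had a log2 fold change of -0.15 ± 0.092 and Ptcd1, a mitochondrial RNA-binding protein, 0.17 ± 0.14. The 11 genes of mitochondrial DNA maintenance had a median of -0.052, with -0.22 ± 0.12 for the deoxynucleoside kinase Dguok and -0.11 ± 0.081 for the helicase Twnk. The 12 regulators of biogenesis had a median of 0.02. Ppargc1a, the coactivator PGC-1alpha, was low at 2.50 ± 0.810 CPM (SD, n = 4) in AAV-GFP and 3.52 ± 0.473 (SD, n = 3) in AAV-Adipsin, a log2 fold change of 0.49 ± 0.27. Nrf1 had -0.0076 ± 0.12 and Yy1 -0.16 ± 0.087. For Yy1 the AAV-GFP libraries lay at 99.96 to 121 CPM and the AAV-Adipsin libraries at 93.3 to 98.5, without passing the test.

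The citric acid cycle list had a median log2 fold change of -0.013 over 17 genes, with -0.072 ± 0.085 for Pdhb and -0.056 ± 0.083 for Dlat, both of pyruvate dehydrogenase. The 28 mitochondrial ribosome genes had a median of -0.056, with -0.13 ± 0.083 for Mrps15 and -0.13 ± 0.092 for Mrpl4. mt-Rnr1 and mt-Rnr2, present at 0.0215 to 0.0716% of reads after poly(A) selection, had -0.39 ± 0.47 and -0.16 ± 0.48. Malat1 and Neat1, RNAs kept in the nucleus, had -0.31 ± 0.13 and -0.28 ± 0.27. Malat1 had an unadjusted p under 0.05 but was not called (edgeR adjusted p = 1.00). Between the 2 kinds of description, by contrast, the calls in these lists went both ways: 2 higher and 2 lower of 42 further subunits, 1 higher of 42 assembly factors, 2 lower of 28 genes of mitochondrial transcription and RNA, 1 higher and 2 lower of 12 regulators, 1 of each in the citric acid cycle and 3 lower of 28 mitochondrial ribosome genes, beside 9.79% of all genes.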

How the data were processed

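RNA-seq libraries of whole islets were prepared with a stranded, poly(A)-selecting kit, per the labels' protocols. The authors deposited one table of read counts per gene, with no normalization. The submitters' processing notes name STAR and the builds mm10 and GRCm38; how reads were counted, including strand and reads that match several places, is not stated there or in the labels. The 7 columns were matched to samples by the labels' descriptions, and 0 columns were left unused. Symbols, exon lengths and coordinates came from GENCODE M21.

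Counts were tested with edgeR 4.0.16 (R 4.3.3; quasi-likelihood, robust, TMM scaling, filterByExpr, Benjamini-Hochberg adjusted over 16504 genes, two-sided, threshold 0.05), which was also tested on simulated data. edgeR's TMM factors gave CPM; log2 CPM used a prior count of 2. A standard error is the log2 fold change over the root of F. Per-length levels divide CPM by the union of annotated exons. Copies were found with BLAST 2.17.0 (at least 95% identity over 100 bases). Of the members, 45 of 50 passed the filter, which left out the 5 mitochondrial genes near 0.

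The members and gene lists were chosen with earlier results of these data known. Named were all mitochondrial members, and in each nuclear complex the 2 members with the smallest p for treatment, the 2 with the smallest p for description and the 2 with the highest per-length level (Cycs on its own), plus up to 2 genes of each further list with the smallest p for treatment and Ppargc1a, Tfam, Polrmt and Nrf1. Copies are named with their member, and cell type markers are given as sums or counts. Genes named for other reasons (Ndufs1, Ndufa4, Cox8b, Cox8c, Iapp, Slc2a2, Ucn3, Slc30a8) were chosen after their values were seen. Alternatives were DESeq2 1.42.0, limma-voom (limma 3.58.1), other scalings and filters, models with a replicate block or the description, and each library left out. Motif and copy searches are descriptions with no test.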

Additional observations from a re-analysis of the deposited data

Results flagged for a closer look

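Values of 69 measures in the 4 AAV-GFP libraries were checked for a library far from the other 3, and 6 were flagged. Chance flags about 1 in 20 groups. In AAV-GFP replicate 4, Atp5j was at 121 CPM against 85.7 to 89.2 in the other 3, mt-Rnr1 at 315 CPM against 96.7 to 109 and mt-Rnr2 at 416 CPM against 114 to 144. The 2 mitochondrial ribosomal RNAs together took 0.0716% of the reads in that library against 0.0215 to 0.0248%. The 5 endothelial markers summed to 507 CPM there against 310.5 to 337 CPM, though that library was the highest for only 1 of the 5. In AAV-GFP replicate 1, Polrmt was at 23.0 CPM against 18.6 to 19.3 CPM in the other 3. No cause was tested.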

How the results depend on the processing

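For treatment, 0 members were called under all 18 alternatives run, and the median log2 fold change of mitochondrial members stayed below 0, at -0.53 to -0.070 with a library left out and -0.31 to -0.085 otherwise. The value farthest from 0 was without AAV-Adipsin replicate 3 and the nearest without AAV-GFP replicate 4. The nuclear median was -0.082 to 0.034 with a library left out, and 7 to 34 of 37 nuclear members were then below 0, with the 7 coming from AAV-GFP replicate 4. Genes called were 0 with no filter, 4 by DESeq2, 0 by limma-voom, 0 without both treatment-named libraries and 0 to 1 with a library left out (0 without any 1 AAV-GFP library or AAV-Adipsin replicate 3). The replicate numbers did not pair the mice: deviations from the group means correlated at 0.66 for replicates 1, -0.011 for replicates 2 and 0.0071 for replicates 3 over 16504 genes. In a model with a replicate block, AAV-GFP replicate 4 has no partner and adds nothing to the treatment estimate, much as when it is left out. With a replicate block 7 nuclear members were below 0, the number of genes called stayed at 1, and log2 fold changes turned above 0 for Atp5d (0.0017), Atp5j (0.020), Cox6a1 (0.012), Cox8a (0.014), Sdhc (0.0034) and Uqcrq (0.012), mt-Rnr1 (0.18) and mt-Rnr2 (0.45). Other turns of values not called were Nrf1 with library totals only (0.020) or at least 1 CPM in 3 libraries (0.0031), mt-Rnr2 by limma-voom (0.034) and Neat1 without both treatment-named libraries (0.0032). Left-out libraries gave ranges across 0 for Atp5d (-0.13 to 0.0033), Atp5j (-0.16 to 0.021), Cox6a1 (-0.15 to 0.019), Cox8a (-0.15 to 0.016), Sdhc (-0.21 to 0.0036), Uqcrq (-0.16 to 0.017), Cox7a1 (-0.78 to 0.00010), Dlat (-0.12 to 0.0043), Nrf1 (-0.082 to 0.083), Polrmt (-0.020 to 0.13), Tfam (-0.054 to 0.0091), mt-Nd3 (-0.25 to 0.10), mt-Rnr1 (-0.55 to 0.21) and mt-Rnr2 (-0.35 to 0.46).

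For the description, 1616 genes and 3 members were called, against 2528 and 9 by DESeq2, 39 to 4348 genes and 0 to 20 members with a library left out. The highest counts were without AAV-GFP replicate 4 and the lowest number of genes without AAV-GFP replicate 1. Of the genes the naming rule gives for the description and the 4 regulators, left-out libraries gave ranges across 0 of -0.022 to 0.10 for Nrf1, -0.00057 to 0.17 for Sdhb and -0.0044 to 0.046 for Tfam. Among members the rule does not give for it, values near 0 also changed sign over the alternatives, as for Atp5a1, Atp5j, Cox6a1, Sdha and Sdhc. The median of mitochondrial members stayed between -0.81 and -0.52 under the alternatives run. Median levels per kilobase were 1461 (mitochondrial) and 39.9 (nuclear), and the longest annotated transcript gave 68.2 (nuclear). Transcript bases outside near-identical copies, an alternative chosen after seeing the data, gave 2192 and 76.5. This also put the longest protein-coding transcript in place of the exon union, which shortens nuclear members without such copies too. Atp5j, for one, has 809 bases in place of 3130. The mean mitochondrial share of 1.64% became 2.13% without the 10 most abundant genes in the total. Except where a library or gene left out, or the length used, accounts for it, the cause was not tested. The counts of the 5 mitochondrial members near 0 allow no statement on their expression, and mt-Nd3 and Cox7a1 rest on 52 to 133 and 8 to 18 reads per library.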
